A study of Rattus norvegicus with 6 samples.

Results

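The renin-angiotensin system genes described here are Agtr1a, Agtr1b, Agtr2, Agt and Ace, 5 of the 4736 genes named on the arrays, read by 12 of the 8740 probe sets of an Affymetrix array. They were taken as all probe sets whose annotation names exactly 1 gene, that gene being 1 of these 5: 4 probe sets for Agtr1a, 4 for Agtr1b, 2 for Agtr2 and 1 each for Agt and Ace. Another probe set, annotated to both Ace and Ace3, was left out by that rule. The samples were cardiac fibroblasts grown in primary culture from ventricles of Sprague-Dawley rats aged 1 to 2 days. In the control group 3 cultures received water, and in the other group 3 cultures were exposed for 24 h to pertussis toxin (PTX), at a dose not given in the sources used here. Made by Bordetella pertussis, PTX ADP-ribosylates the alpha subunits of Gi and Go proteins, so that receptors can no longer activate them. Neither the number of animals nor whether each culture was a separate cell isolation is stated, so the p-values cover the spread between these cultures, which may be technical spread.

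In the renin-angiotensin system, renin cleaves angiotensinogen (the product of Agt) to angiotensin I, and angiotensin-converting enzyme (Ace) trims that to angiotensin II. Angiotensin II acts on the type 1 receptor, AT1, which in cardiac fibroblasts signals mainly through Gq and promotes proliferation and matrix synthesis, and on the type 2 receptor, AT2, which often opposes it. Rodents have a pair of AT1 genes, Agtr1a and Agtr1b, whose coding sequences are very much alike, whereas humans have a single one. In cultured rat cardiac fibroblasts, interleukin-1 beta and tumour necrosis factor are known to raise AT1 receptor levels through NF-kB.

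All 4 probe sets of the receptor gene Agtr1a had higher means with PTX. The change was 1.43-fold on the probe set from the coding sequence (X62295cds_s_at), with an unadjusted 95% interval of 1.16 to 1.78. It was 1.24-fold (0.99 to 1.56) and 1.17-fold (0.91 to 1.51) on the brightest pair. On M74054_s_at it was 2.21-fold (0.86 to 5.66) and rested largely on the low value of 1 control array. The intervals of these other probe sets all include 1. None of the 12 probe sets passed an adjusted p of 0.05 (limma; 0.0763% of all tested probe sets were called higher and 0% lower), so no member of the system is called higher or lower. Both Agtr2 probe sets, that of Agt and 1 of the 4 of Agtr1b had mean signals under the 40th percentile.

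The windows around the annotated starts of the AT1 receptor genes are shown because 8 of the 12 probe sets read this pair of genes. Each is the RefSeq sequence of 300 bases, 250 before and 50 after the gene's start, 5′ to 3′ on the gene's own strand in the GRCr8 build, chr17:34435383-34435682 (minus strand) for Agtr1a and chr2:104849213-104849512 (minus strand) for Agtr1b. Capitals mark matches, on either strand, to a TATA box (TATAAA), a GC box (GGGCGG), an AP-1 site (TGAGTCA, which reads TGACTCA on the other strand) or the NF-kB consensus.
Agtr1a: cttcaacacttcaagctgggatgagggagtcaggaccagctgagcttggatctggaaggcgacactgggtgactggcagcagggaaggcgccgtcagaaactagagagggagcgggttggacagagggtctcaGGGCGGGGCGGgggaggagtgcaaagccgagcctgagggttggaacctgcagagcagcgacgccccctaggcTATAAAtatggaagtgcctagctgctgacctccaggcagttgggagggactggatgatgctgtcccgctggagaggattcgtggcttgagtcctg
Agtr1b: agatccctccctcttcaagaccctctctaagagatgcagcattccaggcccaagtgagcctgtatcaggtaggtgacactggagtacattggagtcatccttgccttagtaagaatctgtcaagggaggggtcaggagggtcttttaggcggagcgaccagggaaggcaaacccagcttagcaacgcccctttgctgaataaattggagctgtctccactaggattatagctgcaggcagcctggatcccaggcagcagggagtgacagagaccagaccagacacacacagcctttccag
The Agtr1a window holds 1 TATA box match, at bases 206 to 211 of the window, and 2 GC box matches that share 1 base, at bases 134 to 139 and 139 to 144. The Agtr1b window holds no match to any of these motifs, and neither window holds an AP-1 or NF-kB match. Among the 33469 promoter windows of the table, 14.2% hold the TATA box, 33.1% the GC box, 4.63% the AP-1 site and 7.51% the NF-kB consensus. Over 260 aligned base pairs of a global alignment, the windows are 68.5% identical. A match or its absence in these letters says nothing about binding of a factor. Of the 5 genes, 4 had a window in the table.

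Signals are linear intensities as deposited, and changes are differences of log2(signal + 16) between PTX and control, which understate changes of low signals. Levels of different probe sets are not compared with each other, since a signal depends on the probes. The array-wide median signal lay between 63.1 and 68.85 on the 6 arrays, whose small number limits how precise each value is. Control replicate 1 stood apart, with Pearson correlations of 0.952 to 0.960 with the other arrays against 0.978 to 0.985 among those. Member results are therefore also given without it. The test was limma, adjusted by the Benjamini-Hochberg method over the 5244 probe sets above the 40th percentile of mean signal. Of the 12 members 8 passed that filter: all 4 of Agtr1a, 3 of Agtr1b and that of Ace. The other 4 are given from a fit of all 8740 probe sets.

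The ligand precursor gene Agt was read between the 25.5th and 52.5th percentile of the signals of the 6 arrays, with a mean under the filter. Its probe set (rc_AA943892_at) gave 73.4, 38.1 and 18.0 in control replicates 1, 2 and 3, and 28.2, 15.4 and 17.0 in PTX replicates 1, 2 and 3. The groups overlapped, and control replicate 1 was the highest of all 6 arrays. The mean was 43.2 ± 28.0 in the controls and 20.2 ± 6.97 with PTX (SD, n = 3 each). The log2 change was -0.61 ± 0.38 (SE), with an adjusted p of 0.609 in the limma fit without a filter. It was -0.26 without control replicate 1 (adjusted p = 0.810). Control replicate 1 lay 1.06 log2 units above the mean of the other 2 controls here, a gap higher than or equal to that of 98.6% of the tested probe sets.

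The probe set of Ace (U03734_at), the peptidase that makes angiotensin II and also inactivates bradykinin, read 267.6, 188.5 and 207.6 in the controls and 216.1, 163.1 and 151.9 with PTX. The highest value was control replicate 1, and the groups overlapped through PTX replicate 1. The means were 221 ± 41.3 and 177 ± 34.3 (SD, n = 3 each). The log2 change was -0.30 ± 0.20 (SE), with a 95% interval of -0.75 to 0.16 and a limma adjusted p of 0.513. With control replicate 1 left out it was -0.16 (adjusted p = 0.713). Ace is best known from endothelium. Of 10 endothelial markers 6 had a probe set with 1 symbol and 3 passed the filter (Kdr, Flt1 and Nos3), with a summed signal of 137 to 274.7 in the controls and 125.7 to 219.5 with PTX. Of those under the filter, Pecam1, an adhesion molecule of endothelial junctions, read 17.5 to 39.2, Vwf 2.2 to 25.4 and Sele 5.9 to 17.2 over the 6 arrays. Their part in the Ace signal was not tested. In such bulk samples fewer cells of a type and less RNA per cell cannot be told apart.

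Agtr1a encodes the AT1A receptor, the main AT1 subtype of the rat heart. The coding-sequence probe set X62295cds_s_at read 325.9, 345.3 and 381.4 in control replicates 1 to 3 and 491.3, 494.9 and 543.0 in PTX replicates 1 to 3. All 3 PTX cultures lay above all 3 controls, and control replicate 1 did not stand apart from the other controls. The means were 351 ± 28.2 and 510 ± 28.9 (SD, n = 3 each). The log2 change was 0.52 ± 0.13 (SE), with an unadjusted limma p of 0.00491, which ranked 105 of 5244, and an adjusted p of 0.244. Without control replicate 1 it was 0.47 (adjusted p = 0.0929).

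The brightest Agtr1a probe sets, M86912exon_g_at and M86912exon_at, come from the same exon sequence and are therefore not independent readings. M86912exon_g_at read 1322.2, 998.1 and 1097.7 in the controls and 1371.9, 1399.4 and 1458.0 with PTX. The groups did not overlap, although control replicate 1 lay close under the lowest PTX culture. The log2 change was 0.31 ± 0.14 (SE), from 1139 ± 166 to 1410 ± 44.0 (SD, n = 3 each), with a limma adjusted p of 0.417. Without control replicate 1 it was 0.42 (adjusted p = 0.0769). M86912exon_at read 1356.9, 1058.3 and 951.2 in the controls and 1242.4, 1300.9 and 1377.5 with PTX. Here control replicate 1 lay within the PTX range, so the groups overlapped. The log2 change was 0.23 ± 0.16 (SE; limma adjusted p = 0.528), or 0.37 without control replicate 1 (adjusted p = 0.131).

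The fourth Agtr1a probe set, M74054_s_at, read 42.0, 286.0 and 287.2 in the controls and 379.0, 320.4 and 414.5 with PTX. The controls lay under all PTX cultures, but control replicate 1 was far below the other controls. Its gap to their mean was -2.38 on the log2 scale, and only 1.2% of the tested probe sets had a gap as low or lower. The log2 change of 1.14 ± 0.59 (SE; limma adjusted p = 0.446) rested largely on that array, and without it the value was 0.35 ± 0.14 (adjusted p = 0.286). The size of the change on this probe set, 2.21-fold with all arrays, is therefore not taken as that of the gene.

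**Figure D1:**
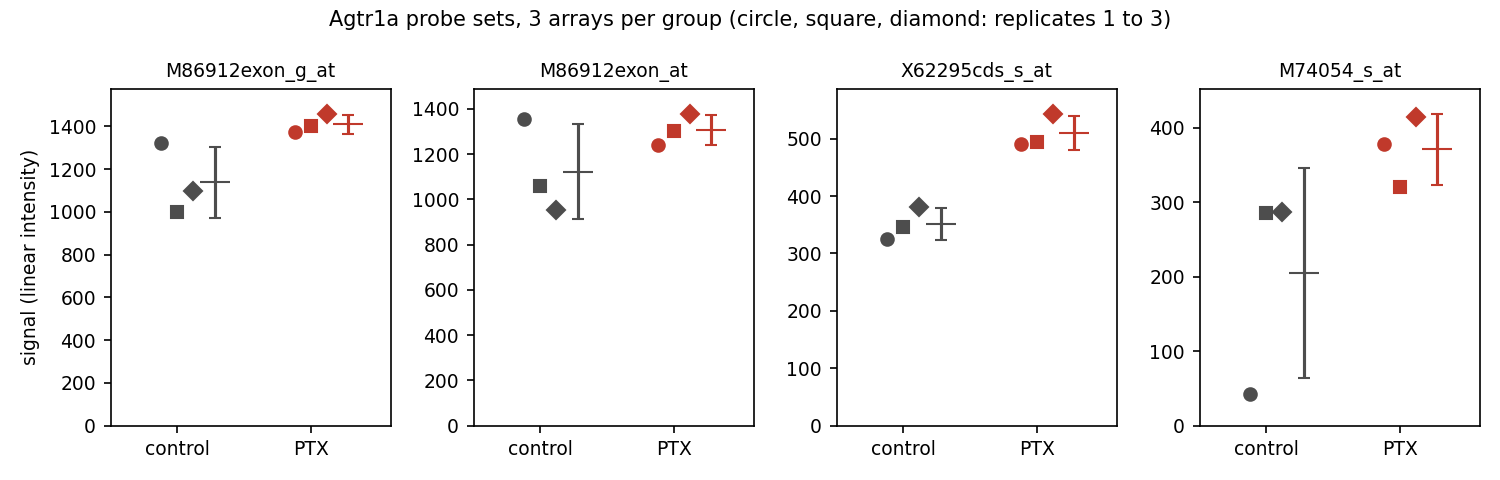
Signal (linear intensity) of the 4 Agtr1a probe sets in control and PTX cultures, with 1 point per array and the mean ± SD of 3 arrays beside them; all vertical axes start at 0. The PTX points lie above the control points for X62295cds_s_at, M86912exon_g_at and M74054_s_at and overlap for M86912exon_at, and control replicate 1 (circle) is at 42.0 for M74054_s_at.

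Of the 4 Agtr1a probe sets, 3 were higher with PTX with groups that did not overlap, against 12% of all tested probe sets. One had an unadjusted p under 0.05 in the higher direction, against 7.97% of all tested. Without control replicate 1, all 4 had an unadjusted p under 0.05 (9.63% of all tested probe sets were higher by that measure) and none passed after adjustment, where 2.19% of all tested probe sets did in either direction. Without that array the log2 changes of the 4 drew together, to between 0.35 and 0.47, against 0.23 to 1.14 with it. The controls then varied less too, so that the SEs lay between 0.11 and 0.14. Of 59 genes read by at least 4 tested probe sets, 6 (10.2%) had positive log2 changes on all of them, Agtr1a among these. At least 3 probe sets higher with no overlap of the groups were found for 1 of the 59 (1.69%), which is Agtr1a. This count was chosen after its values were seen, so the share is a description and not support for a change.

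Across the 6 arrays the Agtr1a probe sets followed each other in part. On the log2 scale the Pearson correlation between M86912exon_g_at and X62295cds_s_at was 0.707 over 6 arrays and 0.996 over the 5 without control replicate 1. That of M86912exon_g_at with M74054_s_at was 0.014 and 0.847. These points share the libraries and the group difference, so the values describe these arrays only.

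Agtr1b encodes the AT1B receptor, which in rats is best known from the adrenal and the pituitary. All 4 of its probe sets carry the suffix by which Affymetrix marks probes that can match several members of a gene family, so a signal there could also come from Agtr1a. Whether the Agtr1a probe sets also read Agtr1b was not tested. S61896_f_at read 56.7, 43.2 and 59.8 in the controls and 34.1, 26.6 and 12.1 with PTX. All PTX cultures lay under all controls, 1 of 4 Agtr1b probe sets for which this held, against 10.6% of all tested probe sets lower without overlap. The means were 53.2 ± 8.83 and 24.3 ± 11.2 (SD, n = 3 each), the latter under the signal of 33.3 that corresponds to the filter. This probe set was thus tested only through its control values, and the values that follow are not read as a result. The log2 change was -0.81 ± 0.30 (SE), with an unadjusted p of 0.0263 and a limma adjusted p of 0.360; at that unadjusted threshold of 0.05, 4.61% of all tested probe sets were lower. Without control replicate 1 the change was -0.78 (adjusted p = 0.327). Over the alternative settings the change ranged from -1.20 with a pseudocount of 1 to -0.41 with one of 64.

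The other 3 Agtr1b probe sets had values nearer to 0. S37461_f_at read 51.6, 58.7 and 94.9 in the controls and 57.5, 55.0 and 58.7 with PTX. Control replicate 3 was the highest and the remaining 5 arrays lay together (log2 change -0.17 ± 0.24 SE, limma adjusted p = 0.745). M90065cds_f_at read 50.7, 34.3 and 54.0 in the controls and 40.4, 34.6 and 52.3 with PTX, with overlapping groups and a log2 change of -0.09 ± 0.25 (SE; adjusted p = 0.884). The values were -0.32 and -0.03 without control replicate 1. Both turned to a positive sign without control replicate 3, at 0.04 and 0.0015. X64052cds_f_at stayed between 1.6 and 3.8 on all arrays, within the lowest 7.24% of the signals of each array, and had a log2 change of 0.07 in the fit without a filter (adjusted p = 0.853), or 0.09 without control replicate 1. The 4 probe sets of Agtr1b therefore give no common direction.

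Agtr2 encodes the AT2 receptor, which is abundant in fetal tissues and declines after birth. Both of its probe sets lay within the lowest 23.2% of the signals of each array. U01908cds_s_at read 3.5, 4.9 and 7.7 in the controls and 2.2, 3.5 and 11.4 with PTX, with a log2 change of 0.0032 (95% interval -0.45 to 0.45, adjusted p = 0.996 in the limma fit without a filter). D16840_s_at read 2.0, 2.5 and 1.8 in the controls and 12.4, 1.7 and 3.1 with PTX, where PTX replicate 1 alone was high (log2 change 0.23, adjusted p = 0.698). The values without control replicate 1 were -0.06 and 0.23. The replicates with the high PTX value differed between these probe sets, replicate 3 in one and replicate 1 in the other. Detection calls were not used here, so signals this low carry no lower bound, and a difference in Agtr2 was not detectable on these arrays.

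**Figure D2:**
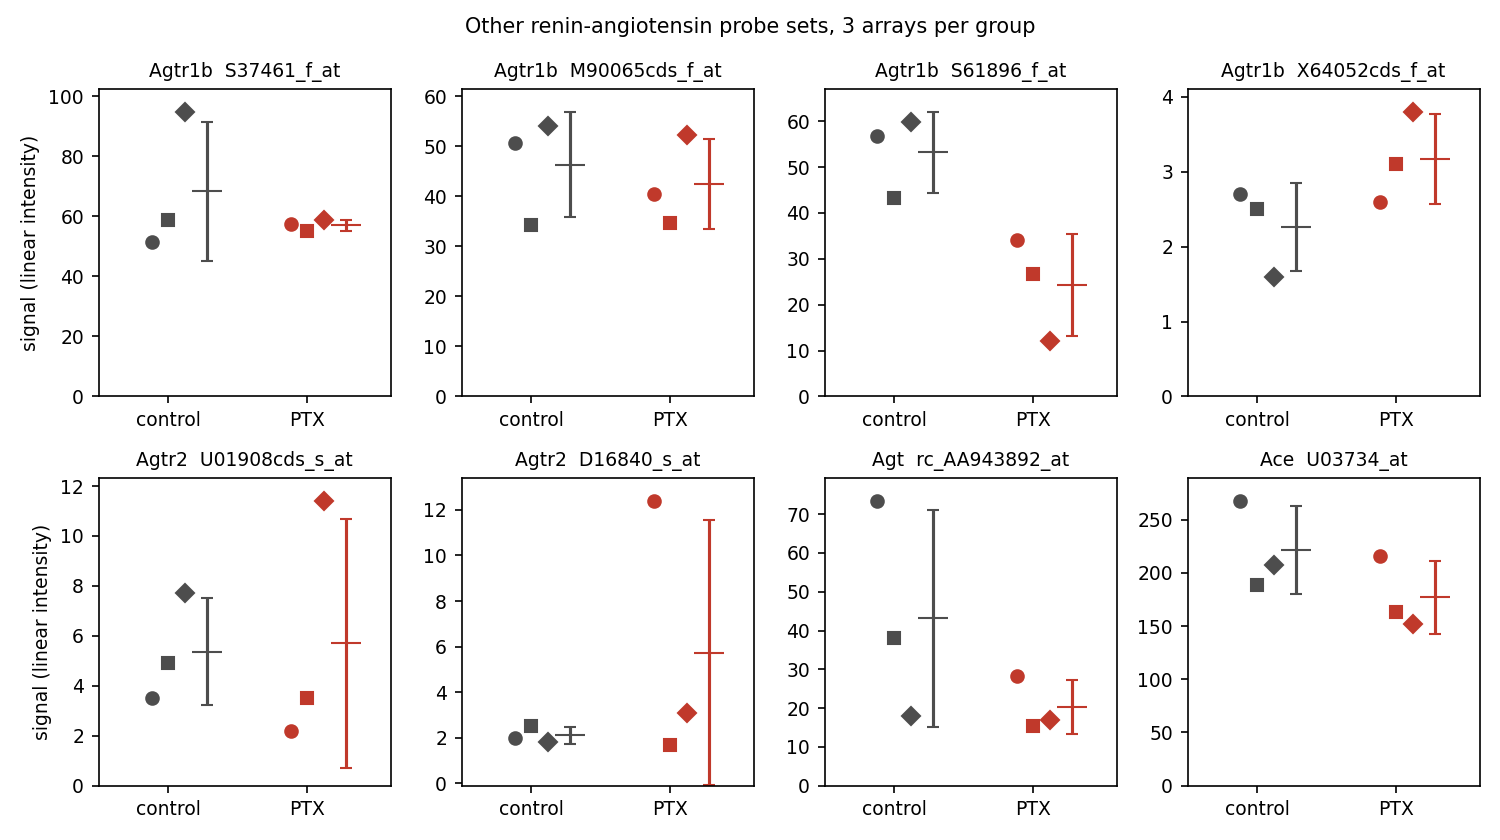
Signal (linear intensity) of the 8 probe sets of Agtr1b, Agtr2, Agt and Ace, with 1 point per array (circle, square and diamond for replicates 1, 2 and 3) and the mean ± SD of 3 arrays beside them, on linear axes that differ between panels. The groups overlap in every panel except S61896_f_at of Agtr1b, where the controls lie at 43.2 to 59.8 and the PTX cultures at 12.1 to 34.1.

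The 4 members under the filter had 0 calls at an adjusted p of 0.05 in the limma fit of all 8740 probe sets, where 0.0343% of all were called in either direction. None of these 4 had an unadjusted p under 0.05 there, against 9.89% of all probe sets, and none had groups apart, against 18%. Among the 8 tested members, 2 had an unadjusted limma p under 0.05, X62295cds_s_at of Agtr1a (higher) and S61896_f_at of Agtr1b (lower). The shares over all tested probe sets were 7.97% higher and 4.61% lower. S61896_f_at passed the filter only through its control values, so its place in this count is not read as a result. An exact two-sided permutation test over the 6 cultures gave p = 0.10, the smallest it can give with 3 against 3, for the 3 Agtr1a probe sets with no overlap and for S61896_f_at. For the other 8 members the exact p lay between 0.20 and 1.

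**Figure D3:**
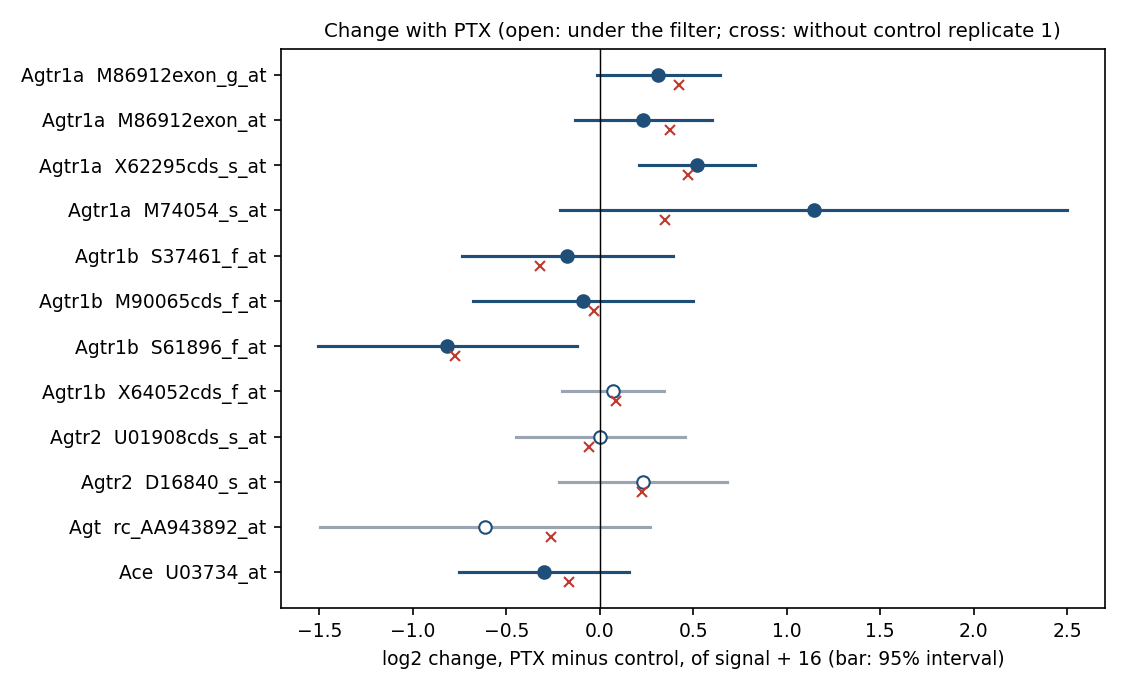
Difference in log2(signal + 16) between PTX and control for the 12 probe sets, with bars for the 95% interval of the limma fit, open circles for the 4 probe sets under the filter and crosses for the value without control replicate 1. The interval lies above 0 for X62295cds_s_at (0.21 to 0.83) and below 0 for S61896_f_at (-1.50 to -0.12) before adjustment, and includes 0 for the others. S61896_f_at passed the filter only through its control values. Without control replicate 1 the 4 Agtr1a values lie between 0.35 and 0.47.

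Whether the receptor subtypes differed in their change was tested within arrays on the brightest probe set of each gene. Agtr1a minus Agtr1b gave a difference in log2 change of 0.49 (exact two-sided permutation p = 0.3, or 0.45 adjusted over 3 pairs), with per-array differences that overlapped between the groups. It was 0.74 without control replicate 1 and 0.25 without control replicate 3. The pairs of Agtr1a and Agtr1b with Agtr2 had differences of 0.31 and -0.18 (exact p = 0.2 and 0.6), but rest on an Agtr2 probe set under the filter and are not read as comparisons. With 3 against 3 the exact test cannot give a p under 0.10, so it could not show a different response of Agtr1a and Agtr1b at 0.05. An equal response was not shown either.

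The genes whose signal over the 6 arrays was most like that of M86912exon_g_at (Agtr1a), among 4373 probe sets of other genes with 1 symbol, were Serpina3n (Pearson r = 0.987), Cdc20 (0.985) and Crlf2 (0.984). Serpina3n encodes a secreted serine protease inhibitor and read 247 ± 73.6 in the controls and 347 ± 18.0 with PTX, a log2 change of 0.50 (limma adjusted p = 0.383). Cdc20, an activator of the anaphase-promoting complex, had a log2 change of 0.37 and Crlf2, a cytokine receptor subunit, one of 0.34, with adjusted p of 0.390 and 0.427. Of the 4373 probe sets, 53 had an r over 0.9 with Agtr1a, 85 with Ace and 7 with S37461_f_at of Agtr1b. Most like Ace were Ckmt2, the sarcomeric mitochondrial creatine kinase (0.991), Anapc5, a subunit of the anaphase-promoting complex (0.987), and Slc2a1, the glucose transporter GLUT1 (0.986). Their log2 changes were -0.41, -0.13 and -0.31, none of them past the threshold (adjusted p = 0.513, 0.652 and 0.449). Most like S37461_f_at were Eif2b3 (0.979), Rpl17 (0.936) and Efna1 (0.934), with log2 changes of -0.14, -0.07 and -0.02. With 6 arrays many probe sets reach such values, and the likeness holds for these arrays only.

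Around the 5 genes, 7 lists of the wider pathway were examined, each gene by its brightest tested probe set. Over all tested probe sets the median log2 change was -0.02, with 47.1% positive. No list gene on its brightest probe set passed an adjusted p of 0.05 over all tested probe sets. The peptidases that make or break angiotensin peptides had 9 tested genes of the 19 listed, and all 9 had negative log2 changes, with a median of -0.12. At an unadjusted p under 0.05 there was 1 lower gene and 0 higher ones, against 4.61% of all tested probe sets lower and 7.97% higher, the shares against which the counts of the other lists are to be read too. The lower gene was Anpep, aminopeptidase N, which trims angiotensin III to angiotensin IV, with 397 ± 51.6 in the controls and 304 ± 4.08 with PTX, a log2 change of -0.36 (adjusted p = 0.378). Its other probe sets had -0.71 and -0.04 with overlapping groups. Thop1 (thimet oligopeptidase), which makes angiotensin 1-7 from angiotensin I, had -0.37 (adjusted p = 0.420), and Ece1, which makes endothelin, -0.22 (adjusted p = 0.561), or -0.08 without control replicate 1. With that array left out, the median of the list was -0.08 over the same probe sets and -0.04 with the filter set anew on the 5 arrays. The common negative sign did not hold then, as Ctsd (0.14), Prep (0.14) and Cma1 (0.07) were positive. Among list genes under the filter, Klk1 (0.66 and 0.85) and Lnpep (0.42) were positive and Enpep (-0.31) negative with all 6 arrays. Renin was not analysed here.

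Among 19 tested genes of AT1 receptor coupling and desensitization, 12 were positive and 7 negative (median 0.04), with 1 of the 19 in each direction at an unadjusted p under 0.05 (background 7.97% higher and 4.61% lower). The lower one was Cav1, caveolin-1, a scaffold of caveolae that binds the AT1 receptor, with 285 ± 61.4 and 176 ± 13.5 (log2 change -0.63, adjusted p = 0.277). The higher one was Itpr1, an IP3-gated calcium channel downstream of Gq, with 217 ± 53.2 and 306 ± 20.0 (0.49, adjusted p = 0.366). Its other 4 probe sets were under the filter, with changes from -0.21 to 0.34 and overlapping groups. Jak2, a kinase that the AT1 receptor can activate, had 0.33 (adjusted p = 0.433), and 0.37 and 0.50 on its other probe sets. The 4 tested genes of the AT2 and Mas axis had a median of -0.20, with 1 lower at an unadjusted p under 0.05 (Nos2, background 4.61%). Nos2 passed the filter only through its control values, so this count is not read as a result. Leaving out control replicate 1 gave a median of 0.15 over the same 4 probe sets and of -0.03 with the filter set anew on the 5 arrays, so the list has no settled direction. Mas1 itself, the angiotensin 1-7 receptor, read 1.2 to 17.4 and was under the filter. Nos2, the inducible nitric oxide synthase, had 66.6 ± 15.1 and 20.3 ± 9.52 (log2 change -1.20, adjusted p = 0.222), against -0.42 to -0.35 on its other 3 probe sets. Its PTX mean lay under the filter signal of 33.3, and without control replicate 1 this probe set fell under the filter. Dusp1, a MAP kinase phosphatase, had -0.22 (adjusted p = 0.600), or -0.03 without control replicate 1. Ptpn6, the phosphatase SHP-1 that AT2 can activate, had 0.28 (adjusted p = 0.688), or 0.56 without that array.

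In the kinin system, which Ace links to angiotensin, 4 genes were tested, 2 positive and 2 negative, with 0 at an unadjusted p under 0.05. Cpe (carboxypeptidase E) had -0.20, Cpd (carboxypeptidase D) 0.17 and Kng2 (a kininogen) 0.22, with adjusted p of 0.473 to 0.682. The B2 receptor gene Bdkrb2 was under the filter at 10.9 to 34.0. The steroid receptor arm also had 4 tested genes, 2 in each direction and 0 at that p. Hsd11b1, which regenerates active glucocorticoid, had 0.25 (adjusted p = 0.430), the kinase gene Sgk1 0.28 (adjusted p = 0.528; 0.14 without control replicate 1) and Nr3c2, the mineralocorticoid receptor, -0.25 (adjusted p = 0.578). A second Nr3c2 probe set had -0.43 with groups that did not overlap (adjusted p = 0.439).

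The known regulators of angiotensin receptor mRNA had 11 tested genes, 7 positive and 4 negative, with a median of 0.03, or 0.09 without control replicate 1, and 2 of the 11 higher at an unadjusted p under 0.05 (background 7.97%). Nfkbia, the NF-kB inhibitor that NF-kB itself induces, read 253 ± 13.4 in the controls and 446 ± 40.7 with PTX, a log2 change of 0.78 (limma adjusted p = 0.137, or 0.0140 without control replicate 1). Il1b, encoding interleukin-1 beta, read 49.9 ± 11.8 and 88.7 ± 13.2 (0.67, adjusted p = 0.324). A second probe set of it had 1.55 (limma adjusted p = 0.204), also with groups that did not overlap, against 12% of all tested probe sets. Its mean was 15.0 in the controls, under the filter signal of 33.3, and 74.6 with PTX. The remaining Il1b probe set, E01884cds_s_at, was under the filter, with means of 18.4 in the controls and 25.6 with PTX. Its log2 change was 0.21, with overlapping groups. Il1a had 0.68 (adjusted p = 0.450), or 0.33 without control replicate 1 (adjusted p = 0.610). A second tested probe set of Il1a had 1.18 (adjusted p = 0.303), with means of 21.1 in the controls and 63.2 with PTX. These second probe sets of Il1b and Il1a passed the filter only through their PTX values. They also come from the same sequences as the brightest probe sets of these genes, so they are not read as further support. Tnf was under the filter at 6.5 to 19.6, with a log2 change of -0.02, and Nfkb1, an NF-kB subunit, had -0.10. The receptor genes for these cytokines, Il1r1 (-0.0045) and Tnfrsf1a (0.03), had values near 0.

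The 17 tested genes that angiotensin II is known to induce in fibroblasts split into 9 positive and 8 negative, with a median of 0.05 and 3 of the 17 higher at an unadjusted p under 0.05 (background 7.97%). Ccl2, a monocyte chemokine, had a log2 change of 1.52 on its brightest probe set (adjusted p = 0.0635, or 0.000323 without control replicate 1), and 1.87 on the other one, which passed (adjusted p = 0.0429). Postn, the matricellular protein periostin, had 1843 ± 911 and 3618 ± 188 (1.07, adjusted p = 0.274, or 0.79 without control replicate 1). Fn1, fibronectin, had 0.43 (adjusted p = 0.388), and its other 3 tested probe sets -0.81, 0.13 and 0.09. The fibrillar collagen genes Col1a1 (-0.37) and Col3a1 (-0.22), Tgfb1 (-0.28) and Fos (-0.39) were negative. Col1a2 (0.06), also a fibrillar collagen gene, Timp1 (0.25) and Spp1 (0.19) were positive. None of these had an unadjusted limma p under 0.05. Leaving out control replicate 1 gave -0.17 for Col1a1, -0.15 for Col3a1, -0.03 for Tgfb1 and -0.26 for Fos. It gave 0.02 for Col1a2, 0.30 for Timp1 and 0.11 for Spp1.

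**Figure D4:**
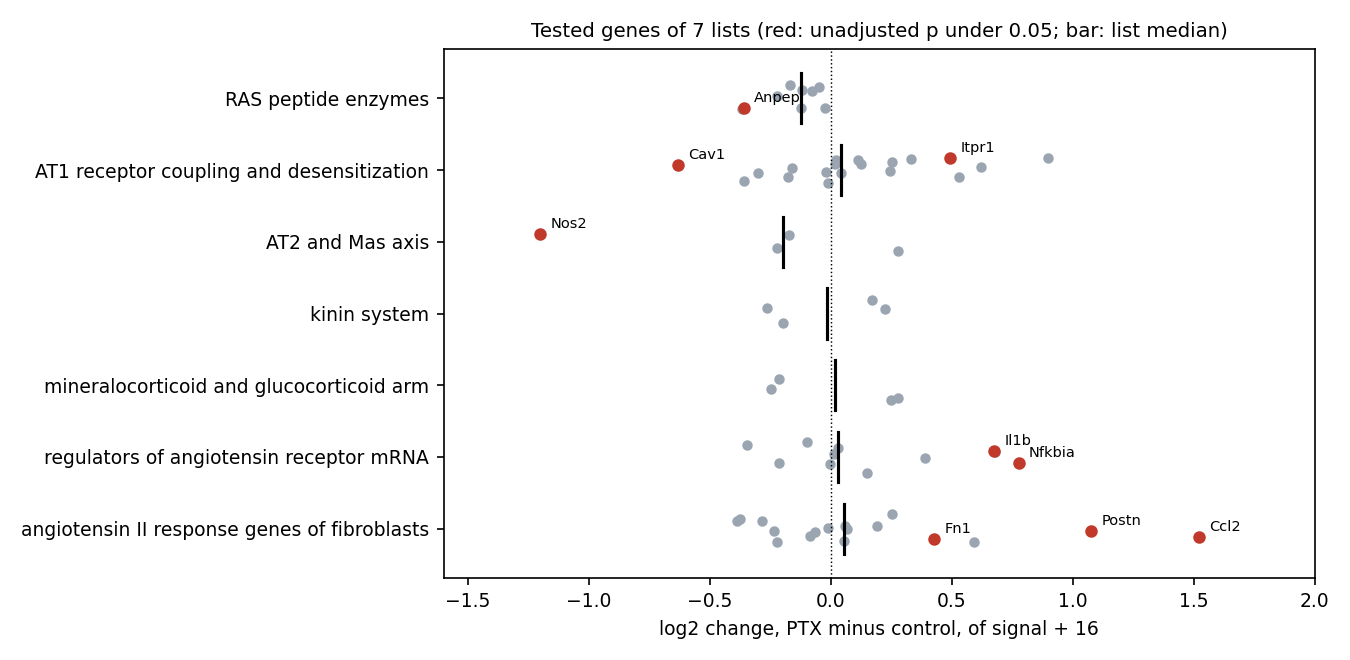
Difference in log2(signal + 16) between PTX and control for the tested genes of 7 lists around the renin-angiotensin system, 1 point per gene on its brightest tested probe set, with red points for an unadjusted p under 0.05 and black bars for list medians. The medians lie between -0.20 and 0.05, and the 9 tested peptidase genes are all below 0 with all 6 arrays, but not without control replicate 1.

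The fibroblast label was checked against markers. All 10 fibroblast markers were tested, and Col3a1 read 20222 ± 1932 in the controls and 17301 ± 1486 with PTX. Myl2, a myosin light chain of cardiomyocytes, read 52335 ± 15205 and 42453 ± 4037, so these cultures also held cardiomyocyte transcripts. The summed signal of the 9 tested cardiomyocyte markers of 10 was 227988 to 295999 in the controls and 196545 to 221767 with PTX, without overlap, with 7 of 9 negative. Myl2 had a log2 change of -0.27 and Myh7, a myosin heavy chain, one of -0.39, which were -0.04 and -0.21 without control replicate 1. The summed signal of the 5 tested macrophage and leukocyte markers of 10 was 3343 to 3486 and 4175 to 5339, also without overlap. The brightest of them, Lyz2, which makes up most of this sum, read 2381 ± 210 in the controls and 3445 ± 638 with PTX. Of the 5, 3 had positive and 2 negative log2 changes. Lyz2 had 0.52 (limma adjusted p = 0.303), Fcgr2b 0.88 (adjusted p = 0.0876) and Cd14 0.15. C1qb had -0.39 and C1qc -0.24, or -0.23 and 0.0021 without control replicate 1. Under the filter, Cd74 read 2.9 to 28.0, Csf1r 8.4 to 44.1, Itgam 1.8 to 19.1 and Ptprc 1.4 to 62.1 over the 6 arrays. Their log2 changes were -0.90 to 0.0067 for Cd74, 0.17 for Csf1r, -0.27 for Itgam and -0.24 to 0.02 for Ptprc. Once control replicate 1 was left out, Fcgr2b, an Fc receptor of leukocytes, passed as higher (0.88, adjusted p = 0.00791) and Lyz2 had 0.44 (adjusted p = 0.158). The 7 tested smooth muscle and pericyte markers of 9 summed to 23123 to 25189 and 23202 to 24080, and the 10 fibroblast markers to 82640 to 99174 and 84279 to 88803, both with overlap. Within the fibroblast list Lum (1.10) and Thy1 (-0.97) had opposite signs (adjusted p = 0.236 and 0.0743), and both passed without control replicate 1, at 0.74 (adjusted p = 0.00662) and -0.95 (adjusted p = 0.00791). None of the 88 marker probe sets was at 0 on any array. The part of these cell types in the Agtr1a values was not tested.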

How the data were processed

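Sample titles gave the groups and replicate numbers. Per the labels' protocols, cRNA was labelled with biotin and read on 1-colour Affymetrix arrays, 1 per culture. Per the submitters' processing notes the authors used GCOS, with a version and scaling target not given in the sources used here. Values deposited by the authors are linear probe set intensities; 2% trimmed means of 493 to 495 on the 6 arrays are those of arrays scaled to a common target, and no further scaling was done. The table holds 0 further columns of per-sample values, and no 2 arrays were identical.

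Of the 8740 probe sets 7006 have 1 symbol in the platform annotation, 308 several and 1426 none; 6985 symbols were updated through the Entrez identifier with RefSeq genes of GRCr8. Signals were analysed as log2(signal + 16). Probe sets under the 40th percentile of mean log2 value were left out, which left 5244. PTX was compared with control by limma 3.58.1 in R 4.3.3 (eBayes with an intensity trend, two-sided, Benjamini-Hochberg adjustment, threshold 0.05). The procedure was tried on simulated data with independent noise and no outlying array, so that trial does not cover an array like control replicate 1. For 4 members under the filter, values come from the same fit without it. Exact permutation tests over the cultures were added.

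The members, lists, tests and alternatives were chosen with earlier results of these data known. Named are all members, the 3 list genes with the smallest p per list (each by its tested probe set with the highest mean), the 3 genes most like each member above the filter, and 2 genes per marker list, the brightest and the one with the smallest p; other names were picked with their values in view. No pairing by replicate number was seen: the deviations of same-numbered arrays from their group means had correlations of -0.093, -0.105 and -0.0080. With 3 arrays per group this check cannot exclude pairing. The 18 alternatives were other pseudocounts, filters, scalings, variance models, array weights, a replicate block, the removal of a probe set class (names beginning rc_AA799 or rc_AA800, which holds none of the members) and the removal of each array.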

Additional observations from a re-analysis of the deposited data

How the results depend on the processing

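No member passed an adjusted p of 0.05 under any of the settings run (18 alternatives, or 17 for members under the filter or removed by the 60th percentile filter). All 4 Agtr1a probe sets, S61896_f_at and X64052cds_f_at of Agtr1b, D16840_s_at of Agtr2, Agt and Ace kept their direction throughout. X62295cds_s_at of Agtr1a ranged from 0.43 with quantile normalization to 0.58 without control replicate 3, with adjusted p from 0.0729 with array quality weights to 0.682 without PTX replicate 1. M74054_s_at ranged from 0.35 to 1.54 as single arrays were left out, and had 0.50 with array quality weights. U01908cds_s_at of Agtr2 turned to -0.12 with a pseudocount of 1, -0.0047 with common median scaling and -0.018 with array quality weights, and ranged from -0.18 to 0.12 as arrays were left out. S37461_f_at of Agtr1b ranged from -0.32 to 0.040 and M90065cds_f_at from -0.24 to 0.0086. Agtr1a minus Agtr1b kept its direction in all 11 alternatives run, with exact p of 0.1 to 0.4.

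The number of probe sets called higher was 4, and 2 with a pseudocount of 1, 7 with one of 64, 2 with quantile normalization, 0 without a trend, 9 with robust variances, 66 with array quality weights, 8 without the rc_AA799 and rc_AA800 probe sets, and 0 to 97 as arrays were left out: 97 without control replicate 1, 30 without control replicate 3 and 0 without PTX replicate 1, 2 or 3. The number called lower was 15 with array quality weights and 0 to 18 as arrays were left out. With the replicate number as a block 0 probe sets were called, and X62295cds_s_at had a limma adjusted p of 0.403. Pairing by replicate number was not seen but is not excluded. Pathway list genes called higher numbered 1 with robust variances, 2 with array quality weights, 1 without those rc_ probe sets and 0 to 2 without single arrays. The kinin median was -0.15 with a pseudocount of 64 and -0.25 to 0.25 without single arrays, that of the AT2 and Mas axis 0.045 with array quality weights and -0.53 to -0.027 without single arrays (filter set anew each time), and that of AT1 receptor coupling 0.18 with a 60th percentile filter. The cause of these shifts was not tested. Low signal limits what can be read of Agtr2, Agt and X64052cds_f_at.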
